A study of Mus musculus with 4 samples.

Results

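Adipose progenitors are the fibroblast-like stromal cells of fat that build its collagen matrix and give rise to new adipocytes. They were compared here between the lineage-positive (Lin+) and the lineage-negative (Lin-) fraction of inguinal white fat of control mice. The cells were selected on measured values: barcodes needed 300 or more genes, 500 or more UMIs (unique molecular identifiers, each counting 1 captured transcript) and no more than 10% mitochondrial UMIs. They also had to show at least 5 of the 7 fibroblast genes Pdgfra, Col1a1, Dcn, Lum, Col3a1, Dpt and Col1a2, with no UMI of Ptprc (the pan-leukocyte antigen CD45) or Pecam1 (an endothelial antigen). This left 1569 Lin+ and 2113 Lin- progenitors, 3682 of the 6025 control barcodes and of the 14931 barcodes in all 4 libraries that passed the cell filter.

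The study pooled the stromal vascular fraction, which is what remains of a digested fat pad once adipocytes float off, from 7 control mice (C57BL/6) and 8 iAdFASNKO mice. The labels do not spell out iAdFASNKO; the name is known to stand for a deletion of Fasn, which encodes fatty acid synthase, that can be induced in adipocytes. Red cells were lysed, and magnetic beads then split each pool into Lin+ cells, described as largely immune, and Lin- cells. The sources used here do not give the age and sex of the mice, the induction scheme or the antibodies of the sort. Each fraction of each genotype is 1 library, so there is no replicate and no test: every interval below covers counting error only, not differences between mice, sorts or preparations.

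Mouse inguinal fat is known to hold several progenitor states. Interstitial progenitors carry Dpp4 and Pi16, lie in the connective tissue around the fat lobules and divide readily. Committed preadipocytes carry Pparg, Fabp4 and Icam1 and lie closer to adipocytes and vessels, while a CD142 (F3) population has been described as restraining adipogenesis. A lineage panel is a mix of antibodies against mature blood cells, and such panels often hold an antibody that recognises Ly6C and Ly6G.

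Progenitors made up 53.7% (Clopper-Pearson 95% interval 51.9 to 55.5) of the kept barcodes in Lin+ and 68.1% (66.4 to 69.7) in Lin-, a share ratio of 0.789 (Katz interval 0.757 to 0.822). In the iAdFASNKO pair, which the choice of cells did not use, the shares were 31.1% and 48.7%. The sort was visible in Ptprc, with a UMI in 34.4% of kept Lin+ and 6.16% of kept Lin- control barcodes. Median depth was 8212 UMIs in Lin+ and 10371 in Lin- progenitors, and the median mitochondrial share was 3.47% and 3.16%. The 2 control libraries had 125 barcode sequences in common, which marked 42 Lin+ and 38 Lin- progenitors.

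Because the gate reads fibroblast genes, its edges are not the same in both fractions. Of the Lin+ progenitors, 964 showed all 7 gate genes, 451 showed 6 and 154 showed 5, while 46 barcodes just outside showed 4. In Lin- the corresponding numbers were 1791, 239, 83 and 95. Lin+ cells with 5 gate genes held 2838 CPM of Pi16 (counts scaled to a common total, here over all genes), those with 6 held 2772 CPM and those with all 7 held 862 CPM. In Lin- the values were 150, 351 and 40.4 CPM, so among gated cells Pi16 was lowest with all 7 genes in both fractions. Among the gate genes themselves, which were used to choose the cells, Pdgfra (the PDGF receptor that marks fibroblasts), Col1a1, Col1a2, Col3a1 and Dcn stayed within 1.5-fold. Lum, a collagen-binding proteoglycan, was at 728 CPM in Lin+ and 1788 CPM in Lin-, and Dpt, a matrix protein, at 2717 and 1540 CPM.

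Across all genes, 13031 had at least 20 UMIs over both libraries and were taken as measured. A gene was called higher or lower where the ratio of its Lin+ to its Lin- CPM was at least 1.5 or at most 1/1.5 with an exact conditional binomial 95% interval that left out 1. By this size rule 1429 genes (11%) were higher and 1388 (10.7%) lower in Lin+, and the median log2 ratio was 0.02. In the iAdFASNKO pair 2114 of 12729 genes (16.6%) were higher and 1445 (11.4%) lower. Of the genes higher in control, 1359 were measured in iAdFASNKO and 997 (73.4%) were higher there too, with 12 lower. Of those lower in control, 1232 were measured and 808 (65.6%) were lower, with 16 higher. Those libraries came from other mice of another genotype, so they repeat the sort but not the condition.

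**Figure D1:**
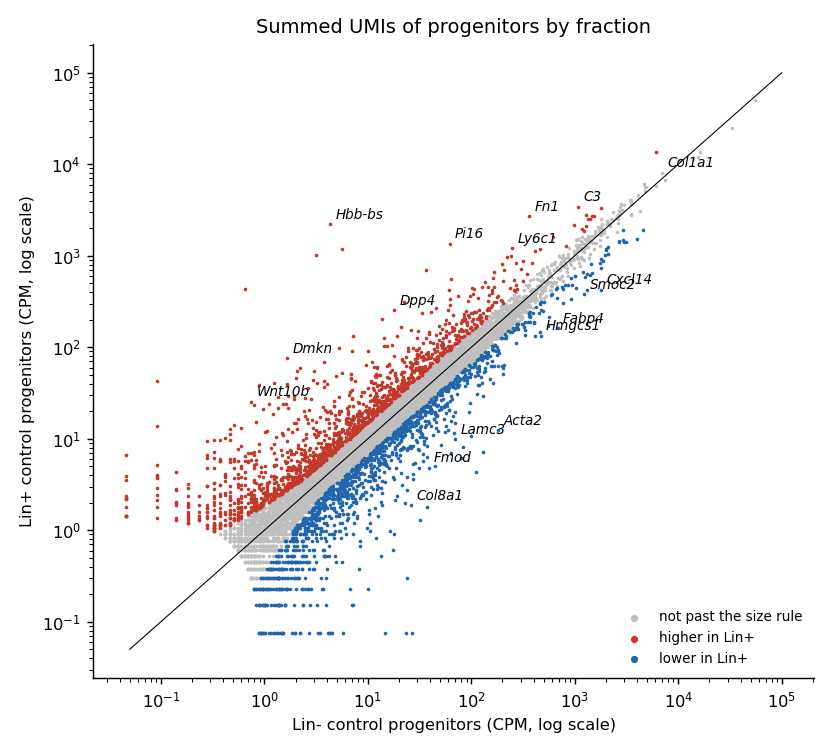
Summed CPM of each measured gene in Lin- (x axis) and Lin+ (y axis) control progenitors, both on log scales, 1 point a gene, with genes at 0 in either library left out and the diagonal marking equal levels. Red points were called higher and blue points lower by the size rule; Pi16, Dpp4, Fn1 and the haemoglobin gene Hbb-bs lie far above the diagonal, and Cxcl14, Smoc2, Fabp4 and Fmod below it.

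Genes of progenitor states were far apart between the fractions. Of 26 interstitial progenitor genes, 25 were higher and 0 lower in Lin+, with a median log2 ratio of 2.37 against 0.02 for all measured genes. In iAdFASNKO it was also 25 of 26, at a median of 2.25, and 24 of them were the same genes. Pi16, a secreted cysteine-rich protein (chr17:29317680-29330593, + strand, GENCODE M21 on mm10), was at 1355 CPM (1335 to 1375) in Lin+ and 61.7 CPM (58.5 to 65.1) in Lin-. That is a ratio of 21.9 (20.8 to 23.2), and the ratio in iAdFASNKO was 18.7. Dpp4, the surface peptidase CD26 (chr2:62330073-62412231, - strand), was at 253 CPM in Lin+ and 18.0 CPM in Lin-, that is 14.1 times as much (12.7 to 15.7).

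Other members of the interstitial list spanned a broad range of ratios. Dact2, an intracellular modulator of Wnt and TGF-beta signals, was at 38.5 CPM in Lin+ and 0.878 CPM in Lin-, a ratio of 43.9 (27.8 to 73.5) in which the Lin- value rests on 19 UMIs. Efhd1, a mitochondrial calcium-binding protein, had a ratio of 18.7 and Cd55, a complement-regulating surface protein, of 5.90. Igfbp6, an IGF-binding protein found in most cells of both libraries, was nearer to even at 2748 and 1466 CPM.

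To set cells of unequal depth side by side, each was thinned to 3000 UMIs, which left out 255 Lin+ and 201 Lin- cells with fewer. A Pi16 UMI was then found in 48.8% of Lin+ and 4.24% of Lin- progenitors, against 53.8% and 7.15% with all UMIs. As a gauge of free RNA, B-cell-marked barcodes of the Lin+ library (303 barcodes, median 2230 UMIs) showed Pi16 in 7.26% and Dpp4 in 8.91%. Mural-marked barcodes of the Lin- library (median 7602 UMIs) showed Pi16 in 0 of 175, which allows a share of up to 1.71%. These barcodes were not thinned and were chosen for under 3 gate genes, so they may understate free RNA. Any Pi16 or Dpp4 transcripts of their own would overstate it, which was not tested. The part of free RNA in the Pi16 shares of progenitors was not tested.

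Committed preadipocyte genes lay on the other side, with 0 of 17 measured members higher and 12 lower in Lin+ and a median log2 ratio of -1.08. In iAdFASNKO 16 of 17 were lower, at -1.79. Fabp4, the adipocyte fatty acid carrier (chr3:10204088-10208576, - strand), was at 162 CPM in Lin+ and 682 CPM in Lin-, a ratio of 0.238 (0.227 to 0.249) in control and 0.0591 in iAdFASNKO. Plin2, a lipid droplet coat protein, had a ratio of 0.323, and Sparcl1, a matricellular protein, of 0.319. Lpl, the lipase that frees fatty acids from lipoproteins, was abundant in both at 1423 and 3003 CPM. Pparg, the master regulator of adipogenesis, was at 14.0 and 36.5 CPM.

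Cxcl14 and Smoc2, which mark a further progenitor state, were lower in Lin+ as well. Cxcl14, a chemokine, was at 426 CPM in Lin+ and 1811 CPM in Lin-, a ratio of 0.235 (0.229 to 0.242). Smoc2, a calcium-binding matrix protein, had a ratio of 0.309, and Hsd11b1, which activates glucocorticoids, of 0.378. The list was not uniform, with 3 of 7 members lower and 1 higher. Genes described for CD142 cells were split too, 5 of 12 higher and 4 lower: Vit, a matrix protein, had a ratio of 3.07, while Mgp, an inhibitor of calcification, had 0.313 and Bgn, a small proteoglycan, 0.440.

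**Figure D2:**
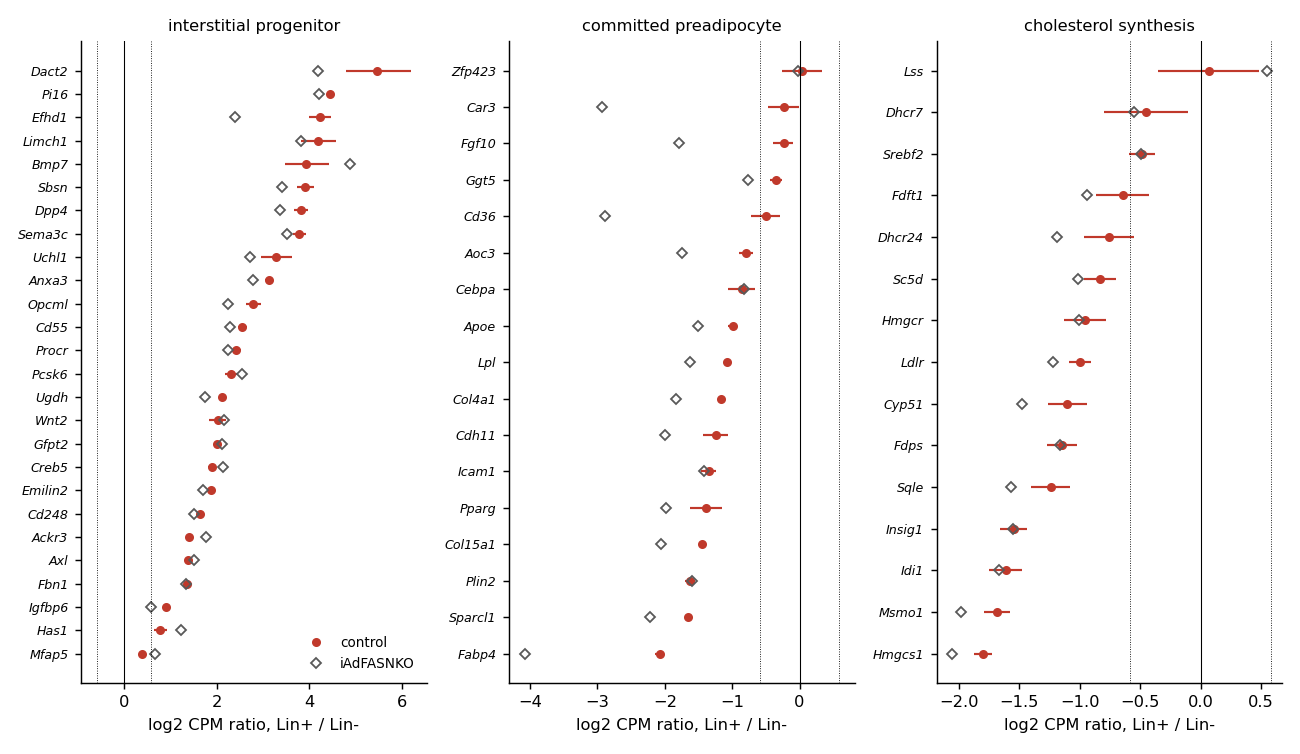
Log2 CPM ratio of Lin+ over Lin- progenitors for each measured member of 3 gene lists, with filled points and 95% counting intervals for control and open diamonds for iAdFASNKO; dotted lines mark 1.5-fold in either direction. All interstitial members lie right of 0, and the committed and cholesterol members lie mostly left of it in both pairs.

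Cell by cell, UMIs of both gene lists were found in both fractions, and the median balance lay on opposite sides. The balance depends on the length and level of each list, so its sign does not assign a cell to a state. At 3000 UMIs per cell, the median Lin+ progenitor held 32 interstitial-list and 6 committed-list UMIs, and the median Lin- progenitor 11 and 32. More interstitial than committed UMIs were found in 70.5% (67.9 to 72.9) of 1314 Lin+ cells and in 12.8% (11.3 to 14.4) of 1912 Lin- cells. Within 5 UMIs of the dividing line lay 145 Lin+ and 235 Lin- cells, and whether the cells form separate types was not tested. In iAdFASNKO the corresponding shares were 81.8% and 17.0%.

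**Figure D3:**
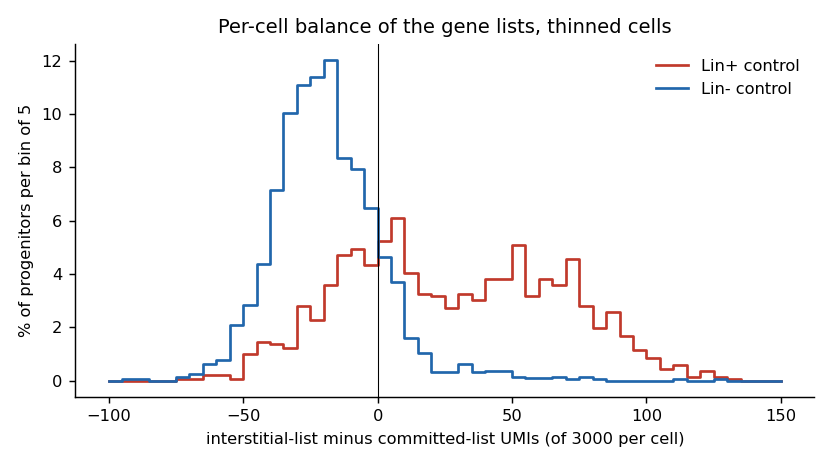
Interstitial-list minus committed-list UMIs per progenitor after thinning to 3000 UMIs (x axis), as the percentage of cells in each bin of 5 UMIs (y axis), for Lin+ (red) and Lin- (blue) control progenitors. The Lin- cells form 1 peak left of 0, and the Lin+ cells spread from the same region to well beyond 50.

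Surface antigens were examined next, since the sort acts on them. Of the genes for antigens common in lineage panels that are given here, Ly6c1 alone was abundant in progenitors. Ly6c1 encodes a lipid-anchored Ly6C protein (chr15:75044018-75048830, - strand). It was at 1214 CPM (1195 to 1232) in Lin+ and 247 CPM (241 to 254) in Lin-, a ratio of 4.91 (4.76 to 5.06), and the ratio in iAdFASNKO was 4.40. In thinned cells a Ly6c1 UMI was present in 88.6% of Lin+ and 42.9% of Lin- progenitors, against 8.25% (unthinned) of the Lin+ B-cell-marked and 2.29% of the Lin- mural-marked barcodes. Its neighbour Ly6c2 had 27 and 3 UMIs, at 2.04 CPM in Lin+ progenitors against 265 CPM in the other Lin+ cells. How reads that fit both of these near-identical copies were counted was not examined. Cd3e, Cd5, Itgam and Ly6g had at most 9 UMIs in Lin+ and 1 in Lin-. Whether Ly6C protein was a target of the sort is not known here, and its part in the division of progenitors was not tested.

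Among 17 Ly6 family and mesenchymal surface genes, 6 were higher and 5 lower, beside 11% and 10.7% of all measured genes. Ly6a, which encodes the stem cell antigen Sca-1, was at 2498 and 1418 CPM, a ratio of 1.76. Vcam1, an adhesion receptor for leukocytes, was lower at 54.3 and 132 CPM. Of 21 integrin and adhesion genes 7 were higher and 8 lower, with Cadm3, a cell adhesion molecule, at 165 CPM in Lin+ and 20.8 CPM in Lin-.

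The same ratios were also taken after progenitors were split by whether they held any UMI of Pi16 or Dpp4. This set 982 Lin+ cells (62.6%) against 243 Lin- cells (11.5%) with such a UMI, and 587 against 1870 without. Among cells with one, 919 of 11528 measured genes (7.97%) were higher and 1007 (8.74%) lower, and among cells without, 760 of 12371 (6.14%) and 815 (6.59%). The interstitial median log2 ratio was 1.41 and 0.79, and the committed median -0.81 and -0.28, each smaller than in all cells. Pi16 and Dpp4 are themselves on the interstitial list, of which 22 members were measured in cells without such a UMI. Its smaller medians are therefore in part set by the split. Pi16 itself stood at 1986 CPM in Lin+ and 510 CPM in Lin- among cells chosen for having Pi16 or Dpp4, so the cells so chosen were not alike in the 2 fractions. Median depth was 8716 (Lin+) and 10196 (Lin-) UMIs with such a UMI and 6456 and 10383 without, and its part in these values was not tested.

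Ly6c1 stayed higher in Lin+ on both sides of that split, with ratios of 4.06 (3.79 to 4.35) and 3.55 (3.40 to 3.72). Cxcl14 stayed lower with 0.355 and 0.450, and Hmgcs1 with 0.481 and 0.447. Lum was lower among Pi16 or Dpp4 cells (0.294) and within 1.5-fold among the rest (0.689). In the reverse split, with a Ly6c1 UMI in 91.1% of Lin+ and 65.3% of Lin- progenitors, the Ly6c1-positive cells still gave 25 of 26 interstitial genes higher (median 2.37), beside 12.3% of all genes higher and 8.77% lower. The 140 Lin+ and 733 Lin- progenitors with no Ly6c1 UMI gave 18 of 25 higher (median 1.47), beside 6.43% higher and 5.15% lower. At like depth, among the 668 Lin+ and 955 Lin- cells of 6000 to 12000 UMIs, 25 of 26 interstitial genes were higher (median 2.58) and 12 of 17 committed genes lower, beside 11.1% and 10.3% of all genes. Those 140 Lin+ cells were shallow, at a median of 1430 UMIs against 8270.

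**Figure D4:**
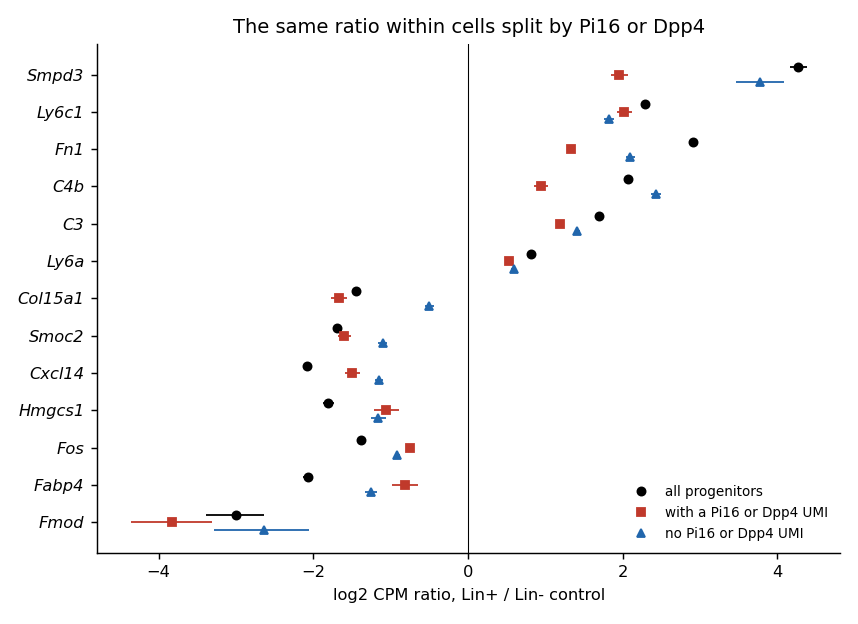
Log2 CPM ratio of Lin+ over Lin- control progenitors for 13 genes, with 95% counting intervals, in all progenitors (black circles), in those with a Pi16 or Dpp4 UMI (red squares) and in those without (blue triangles). Ly6c1, Fn1, C3 and C4b stay right of 0 and Cxcl14, Smoc2, Hmgcs1 and Fmod left of it in both subsets.

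Genes were ranked by the interval bound nearer to 1 among those at least as high in progenitors as in the other cells of the library, a limit that leaves out the haemoglobin genes. The first 15 in Lin+ held Pi16, Dpp4, Dact2, Efhd1, Limch1 and Sbsn from the interstitial list. Dmkn, an epidermal secreted protein, was at 76.2 CPM in Lin+ and 1.66 CPM in Lin-, where a single cell held 38.9% of its UMIs. Wnt10b, a Wnt ligand that blocks adipogenesis, was at 25.5 and 0.739 CPM. Its ratio was 34.5 (20.96 to 61.1) in control and 42.2 in iAdFASNKO. Krtdap, Chst1, Sema3e, Islr2, Adra1b and Aldh1a3 had ratios of 18.3 to 26.6, although in cells with no Pi16 or Dpp4 UMI the log2 ratio of Sema3e was -0.15. The Lin- values of these genes rest on 24 to 81 UMIs each. A single Lin- cell held 39.6% of those UMIs for Krtdap and 8.64 to 16.7% for the others. Smpd3, a neutral sphingomyelinase, was at 701 and 36.2 CPM, with a UMI in 49.2% of Lin+ and 3.71% of Lin- thinned cells.

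In the same ranking on the Lin- side the first gene was Col8a1, a short-chain collagen, at 1.89 CPM in Lin+ and 26.4 CPM in Lin-. Fmod, a collagen-binding proteoglycan, was at 4.84 and 38.8 CPM, and Lamc3, a laminin chain, at 9.90 and 69.2 CPM. Spry1, a feedback inhibitor of receptor tyrosine kinases, had a ratio of 0.228, and G0s2, an inhibitor of adipose triglyceride lipase, of 0.251. Cox8b, a cytochrome oxidase subunit of brown and beige fat and muscle, was at 14.96 and 69.0 CPM in control and had a ratio of 0.0282 in iAdFASNKO.

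Among the matrix gene lists only that of the basement membrane leaned strongly to 1 side, beside 11% of all measured genes higher and 10.7% lower. Of 16 basement membrane genes 10 were lower and 1 higher (median log2 ratio -0.73), while 5 of 15 were lower in cells with a Pi16 or Dpp4 UMI (-0.47) and 3 of 16 in cells without (-0.26): Col4a1 was at 1398 and 3131 CPM, and Col15a1 at 339 and 926 CPM. Fibrillar and beaded collagens were 2 of 12 higher and 4 lower. Col14a1, which binds fibril surfaces, was at 322 and 92.7 CPM, and Col6a3, a microfibril chain, at 1466 and 2656 CPM. Fn1, fibronectin (chr1:71585520-71653200, - strand), was among the more abundant genes with a large gap, at 2697 CPM in Lin+ and 360 CPM in Lin-, a ratio of 7.49 (7.30 to 7.67), and of 4.82 in iAdFASNKO. Matrix proteases and their inhibitors were 5 of 24 higher and 7 lower, with Timp2, a metalloproteinase inhibitor, at a ratio of 1.85. Proteoglycan, elastic fibre and matricellular genes were also 5 of 24 higher and 7 lower. In iAdFASNKO 9 were higher and 6 lower, beside 16.6% and 11.4% of all genes measured there.

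Secreted signals went both ways within each pathway, beside 11% of all measured genes higher and 10.7% lower. Of 18 Wnt pathway genes, 6 were higher, Wnt2 (ratio 4.07) and the Wnt-binding protein Sfrp2 (3.12) among them, and 6 were lower. In the TGF-beta and BMP pathway 8 of 28 were higher and 6 lower: the ligand Bmp7 was at 29.6 and 1.94 CPM (log2 ratio -1.15 in cells with no Pi16 or Dpp4 UMI), the BMP antagonist Chrdl1 at 155 and 26.3 CPM, and the ligand Tgfb2 had a ratio of 3.45. Growth factors Fgf2 (5.34), Fgf18 (4.84) and Pdgfc (3.57) were higher, among 4 of 13 PDGF and FGF genes higher and 3 lower. Of 9 genes of the IGF pathway 4 were higher and 2 lower: Igfbp4, an IGF-binding protein, was at 1130 and 414 CPM, and Igfbp7 at 1036 and 2090.5 CPM.

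Complement genes were 9 of 14 higher and 1 lower (median log2 ratio 0.78). In cells with a Pi16 or Dpp4 UMI they were 4 of 13 higher and 3 lower (0.30), and in cells without 8 of 14 higher and 0 lower (0.96). C3, the central component, was at 3442 CPM in Lin+ and 1066 CPM in Lin-, a ratio of 3.23 (3.18 to 3.28), and C4b was at 819 and 196 CPM. Chemokine and inflammatory genes were 8 of 21 higher and 7 lower. The B-cell chemokine Cxcl13 was at 449 and 101 CPM and the prostaglandin synthase Ptgs2 at 104 and 15.4 CPM, whereas the neutrophil chemokine Cxcl1 was at 148 and 462 CPM and the eosinophil chemokine Ccl11 at 429 and 772 CPM. For Ptgs2, a single cell held 28.8% of the Lin- UMIs.

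Type I interferon response genes were 9 of 19 higher and 0 lower in control (median log2 ratio 0.58), and 10 of 19 higher in iAdFASNKO. Of all measured genes 11% were higher in control and 16.6% in iAdFASNKO. The list was not one-sided within the split by Pi16 or Dpp4: 6 were higher and 3 lower in cells with such a UMI, and 4 higher and 2 lower in cells without, each at a median of 0.25. Ifi27l2a, an interferon-induced membrane protein, was at 994 CPM in Lin+ and 241 CPM in Lin-, and Irf7, a transcription factor of the response, at 61.2 and 12.3 CPM. Ifitm3, a membrane protein that limits virus entry, was at 1498 and 1446 CPM, so the abundant member of the list was nearly even. MHC class I genes, many of which respond to interferon, were 0 of 11 higher and 0 lower. Interferon genes are known to share an upstream element bound by the ISGF3 and IRF factors, so RefSeq promoters (GRCm38.p6, 250 bases before the start) were searched on both strands for GAAA, any 2 bases and GAAA again, with overlapping matches allowed. It was present in 3.46% of all 27025 genes with a promoter entry and in 8 of 15 interferon list genes that had one. Of those 8 genes 3 were past the size rule in Lin+, and of the 7 without a match 4 were. The windows of Ifit1 (chr19:34640740-34640839, + strand, ratio 2.53) and Oas1a (chr5:120907526-120907625, - strand, ratio 2.43), an RNA-binding protein and an oligoadenylate synthase, are shown with the matches in capitals:
Ifit1: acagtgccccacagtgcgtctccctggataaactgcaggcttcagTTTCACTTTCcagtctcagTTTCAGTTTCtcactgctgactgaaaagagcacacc
Oas1a: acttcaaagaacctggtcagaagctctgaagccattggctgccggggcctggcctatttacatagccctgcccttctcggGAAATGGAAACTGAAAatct

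Cholesterol synthesis genes were 0 of 15 higher and 12 lower in Lin+ (median log2 ratio -1.00), and the same 12 were lower in iAdFASNKO (median -1.19). Hmgcs1, which makes HMG-CoA at the head of the pathway (chr13:119690379-119708260, + strand), was at 134 CPM in Lin+ and 467 CPM in Lin-, a ratio of 0.286 (0.272 to 0.301). Msmo1, a sterol oxidase, had a ratio of 0.311 and Idi1, an isomerase of the isoprenoid unit, of 0.327. These genes are known targets of SREBP-2, which binds sterol regulatory elements. The form TCACNCCAC, searched in the same way, was in 1.22% of all promoters and in 1 of 9 list genes with an entry, Hmgcs1, whose window (chr13:119690169-119690268, + strand) carries it in capitals:
Hmgcs1: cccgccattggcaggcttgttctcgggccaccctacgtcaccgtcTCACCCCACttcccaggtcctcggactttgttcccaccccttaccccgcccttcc
Of 20 lipogenesis and lipid handling genes 2 were higher and 6 lower, beside 11% of all measured genes higher and 10.7% lower.

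Immediate early genes, which respond within minutes to handling and tissue digestion as well as to growth signals, were 3 of 27 higher and 13 lower (median log2 ratio -0.58). Of all measured genes 11% were higher and 10.7% lower. Fos was at 1531 CPM in Lin+ and 4001 CPM in Lin-, Jun at 1925 and 4525 CPM, and Ier2 at 305 and 773 CPM. The 3 that were higher were the orphan receptors Nr4a1 (ratio 1.77), Nr4a2 (1.85) and Nr4a3 (2.11), of which Nr4a1 alone was also higher in iAdFASNKO (1.71) and Nr4a2 was lower there (0.516). Heat shock genes were 0 of 15 higher and 3 lower, with Dnajb1, a co-chaperone, at a ratio of 0.516 and the abundant Hspa8 at 0.868. Nuclear oxidative phosphorylation genes were 0 of 24 past the rule in either direction (median log2 ratio -0.13). In iAdFASNKO 9 of these 24 were lower and 0 higher (median -0.53), beside 11.4% and 16.6% of all genes measured there. Glycolysis genes were 2 of 18 higher and 0 lower in control.

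**Figure D5:**
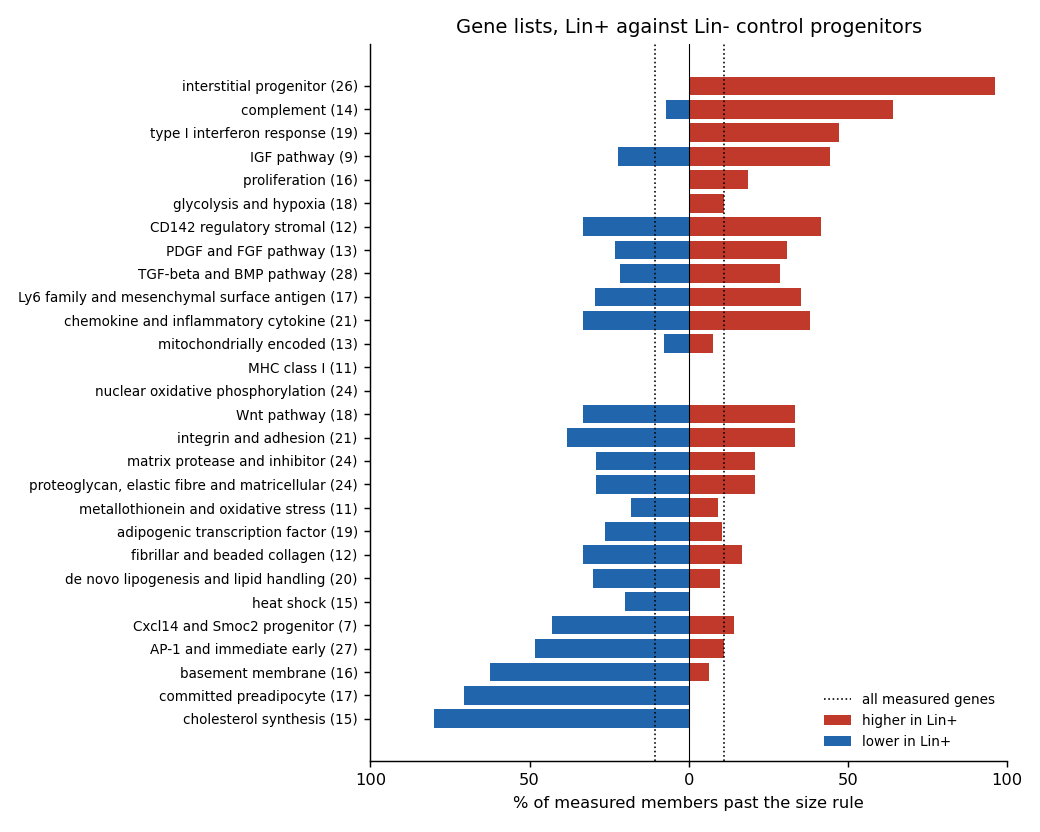
Percentage of measured members of each gene list called higher (red, right) or lower (blue, left) in Lin+ control progenitors, with the number measured in brackets and the share of all measured genes (11% and 10.7%) as dotted lines. Interstitial, complement and interferon lists stand on the right, and cholesterol, committed, basement membrane and immediate early lists on the left.

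Adipogenic transcription factors were 2 of 19 higher and 5 lower, beside 11% of all measured genes higher and 10.7% lower. Ebf2, a factor of committed and brown precursors, was at 214 CPM in Lin+ and 123 CPM in Lin-, opposite to Pparg. Klf4, an early regulator, was at 1361 and 1263 CPM and stayed within 1.5-fold. Of 11 metallothionein and oxidative stress genes 1 was higher and 2 lower: Mt2 had a ratio of 1.77 and Mt1 of 0.734.

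Transcripts of other cell types differed between the fractions within the gated progenitors. The 4 haemoglobin genes summed to 4837 CPM in Lin+ and 13.8 CPM in Lin- progenitors, and to 8442 and 46.5 CPM in the other cells of these libraries. At least 1 haemoglobin UMI was found in 97.0% of Lin+ progenitors. MHC class II and antigen presentation genes summed to 103 and 10.7 CPM, against 11900 and 932 CPM in other cells, with 0 and 2 of the 8 at 0. The 12 B-cell markers summed to 835 and 648 CPM, mostly Ebf1, which progenitors also express. The other 11 gave 128 and 12.0 CPM, with 0 and 5 at 0. The 12 T-cell markers summed to 5.36 and 1.02 CPM and the 8 NK-cell markers to 2.80 and 0.323 CPM, with 4 of each at 0 in Lin-. Macrophage markers that were higher in other cells of both libraries (8 of 12) summed to 26.7 and 1.53 CPM, and such neutrophil and monocyte markers (6 of 10) to 11.5 and 9.43 CPM. The whole neutrophil and monocyte list summed to 383 and 83.5 CPM, mostly Plac8 at 367 and 73.9 CPM. S100a8 fell outside the 6 because it read 0 in other Lin- cells, and it had 51 UMIs in Lin+ and 2 in Lin- progenitors. S100a9 had 50 and 0 UMIs.

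Of 12 pericyte and smooth muscle genes 10 were lower in Lin+, at a sum of 92.7 CPM against 557 CPM in Lin-. At least 3 of them were detected in 16 Lin+ (1.02%) and 196 Lin- (9.28%) progenitors. Acta2, the smooth muscle actin, was at 12.4 and 182 CPM, and a single cell held 12.2% of the Lin- UMIs. The epithelial list summed to 6.88 and 66.3 CPM, with 4 of 7 at 0 in Lin+, and rested on few Lin- cells: 5 had 3 or more markers. The whole endothelial list summed to 119.6 CPM in Lin+ and 92.7 CPM in Lin-, most of the Lin+ sum from Tek, an angiopoietin receptor that was at 98.8 and 31.5 CPM and higher in progenitors than in other Lin+ cells. The 9 of 10 endothelial markers that were higher in other cells summed to 20.9 and 61.2 CPM. Schwann cell genes, 1 of 5 measured higher and 1 lower, summed to 68.8 and 73.9 CPM. Mesothelial markers higher in other cells (5 of 7) summed to 4.91 and 32.9 CPM. Most of that was Krt19, a keratin also made by epithelia, at 4.84 and 31.1 CPM, and a single cell held 26.3% of its Lin- UMIs. At least 3 mesothelial markers were detected in 0 Lin+ progenitors and 1 Lin- progenitor. The part of any of these in the other differences was not tested.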

How the data were processed

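Droplet libraries (10x Genomics 3' v3) of the stromal vascular fraction were sequenced. The deposited matrices hold raw UMI counts per gene and barcode, not normalized, per the file headers; each holds the Lin+ and Lin- library of 1 genotype, and the barcode tag gives the fraction, per the labels. The other deposited columns are gene names and barcodes, used as the authors gave them. The genotype of a matrix was read from its name. The submitters' processing notes name Cell Ranger 3.1.0, Seurat 3.0 and the mm10 build, and software version 3.0.2 stands in the matrix header; the sources used here do not give the annotation, barcode filters before deposit or any depth equalisation between libraries. Control libraries held 21622291 (Lin+) and 33016494 (Lin-) UMIs in 3686 and 3661 barcodes, where about 6000 cells were aimed at per condition.

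UMIs were summed over the progenitors of a library and scaled to CPM (Python 3.11.15, numpy 2.4.6, scipy 1.17.1). CPM carry exact Poisson and ratios exact conditional binomial 95% intervals, and PCR copies are removed by the UMIs. The interval and thinning steps were checked on simulated data. TMM factors came from edgeR 4.0.16 (R 4.3.3), with no edgeR test. Doublets were left in. Scrublet (scanpy 1.11.5, expected rate 0.06) marked 1.16% of kept Lin+ and 0.935% of kept Lin- barcodes, 5 and 12 of them progenitors. B-cell-marked barcodes had at least 2 of Cd79a, Cd79b and Ms4a1, mural-marked ones at least 3 of Rgs5, Myh11, Acta2, Notch3 and Kcnj8, all with under 3 gate genes; these marks were set after the data were seen. Coordinates are those of GENCODE M21, joined by gene identifier (30934 of 31053 features).

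The members, the 48 gene lists and the comparisons were chosen with earlier results of these data known. Named genes were, among those past the size rule with at least 20 CPM in the higher library and no cell with over 10% of its UMIs there, the first 15 per direction by the interval bound nearer to 1, 5 more per direction among genes higher in other cells, and from each list the 3 members farthest from 1 and the highest-level one, together with every gate, lineage panel and haemoglobin gene; the text gives a part of these 185, and some items are not reported here. Nr4a1, Nr4a2, Nr4a3, Ifit1, Oas1a, Ptx3 and Bc1 were named after their values were seen. Alternatives changed the cell filter, gate, doublets, lineage exclusion, shared barcodes, scaling, summing, depth, UMI minimum, ratio and subsets of cells.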

Additional observations from a re-analysis of the deposited data

Results flagged for a closer look

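The Lin+ over Lin- ratio of progenitors lay past the size rule in opposite directions in the control and the iAdFASNKO pair in 28 genes, 12 of them higher and 16 lower in control, and 7 are given here. The difference was not tested, since each side is 1 library. Gata3, a transcription factor that restrains adipogenesis, had a ratio of 0.141 in control and 2.29 in iAdFASNKO, from 7 and 81 UMIs in control, and a single cell held 35.8% of the Lin- UMIs. Its control log2 ratio turned positive, the direction of iAdFASNKO, under the stricter cell filter (1.39), with further lineage genes at 0 (1.99), without shared barcodes (0.080) and in cells of 6000 to 12000 UMIs (2.16). Krt19, an epithelial keratin, had 0.156 in control and 14.8 in iAdFASNKO, and a single cell held 26.3% of the control Lin- UMIs. Its control log2 ratio also turned positive, under the stricter filter (1.196), with further lineage genes at 0 (1.13), in cells with a Pi16 or Dpp4 UMI (0.70) and in cells of 6000 to 12000 UMIs (1.97). Ube2c, a mitotic ubiquitin-conjugating enzyme, had 2.12 in control and 0.500 in iAdFASNKO, with 42.6% and 61.7% of the control UMIs in 1 cell each of Lin+ and Lin-. Its control log2 ratio was -1.29, the direction of iAdFASNKO, in cells with a Pi16 or Dpp4 UMI. Mcpt4, a mast cell protease, had 1.92 in control and 0.524 in iAdFASNKO, and stood at 234 and 85.3 CPM in the other cells of the control libraries. Nr4a2, an orphan nuclear receptor, had 1.85 in control and 0.516 in iAdFASNKO. Ptx3, a soluble pattern receptor, had 0.607 and 1.57, at 45.7 CPM in Lin+ and 75.3 CPM in Lin- control progenitors and at 66.9 and 42.5 CPM in iAdFASNKO. The short neuronal RNA gene Bc1 had 2.58 and 0.464, at 76.4 and 29.6 CPM in control and at 83.0 and 179 CPM in iAdFASNKO.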

How the results depend on the processing

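Each side is 1 pooled library, so no library could be left out. No paired analysis was possible because each group has 1 sample and no test was run. The progenitor share ratio (0.789) was 0.841 with the looser and 0.840 with the stricter cell filter, 0.572 with all 7 gate genes and 0.686 with further lineage genes at 0. With a ratio of at least 2, 815 genes were higher and 818 lower; under every other setting run over all cells these counts stayed within 1.5 times, although thinned cells kept 875 of the 1429 and 772 of the 1388 calls. With all 7 gate genes the list medians (log2) were 2.06 interstitial, -0.82 committed, -0.49 immediate early and -0.88 cholesterol. Thinned cells gave 2.48 and -1.19 for the interstitial and committed lists, and cells of 6000 to 12000 UMIs, a setting chosen after seeing the data, 2.58 and -1.25. The committed median was -1.04 with 4 gate genes, -1.16 with further lineage genes at 0, -1.04 without haemoglobin, mitochondrial and ribosomal genes in the total and -1.14 as a mean of scaled cells. In cells with a Pi16 or Dpp4 UMI the medians were 1.41, -0.81, -0.46 (immediate early) and -0.40 (cholesterol), and in cells without 0.79, -0.28, -0.42 and -0.71. No median of these 4 lists changed sign.

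Of 118 called genes followed, all kept their direction under TMM or median ratio scaling, thinning, either other gate, the looser filter, the mean of scaled cells, the other total, removal of doublets and removal of each gene's top cell. Signs turned (log2 ratio) for Gata3 and Krt19 under the stricter filter (1.39 and 1.196), with further lineage genes at 0 (1.99 and 1.13) and in cells of 6000 to 12000 UMIs (2.16 and 1.97), and for Gata3 without shared barcodes (0.080). In cells with a Pi16 or Dpp4 UMI they turned for Rsad2 (-0.64), Ube2c (-1.29) and Krt19 (0.70), and in cells without for Sema3e (-0.15) and Bmp7 (-1.15). The cause was not tested.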

Other observations

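Genes that were higher in Lin+ progenitors and higher still in the other cells of that library included the haemoglobin gene Hbb-bs, at 2203 CPM in Lin+ and 4.30 CPM in Lin- progenitors and 3820 CPM in other Lin+ cells. Syk, a kinase of immune receptors, was at 21.005 and 0.970 CPM, with 148 CPM in other Lin+ cells. Irf4, a lymphocyte and myeloid transcription factor, was at 24.2 and 1.53 CPM, with 39.9 CPM in other Lin+ cells. On the Lin- side Ndufa4l2, a hypoxia-induced mitochondrial protein that pericytes also express, was at 10.7 and 99.5 CPM, with 175 CPM in other Lin- cells. The part of free RNA or mixed cells in these values was not tested.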
